A study of Mus musculus with 12 samples.

Results

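The RNA of 6 genes that make, sense and remove extracellular adenosine was followed in bone marrow of mice made leucopenic with cyclophosphamide, an alkylating drug toxic to dividing cells. The 6 genes, Nt5e, Entpd1, Adora2a, Adora2b, Adora3 and Ada, were taken by name from a table of 34745 genes. They were chosen from earlier results of the same counts, Nt5e for its level under leucogen, so their levels and fold changes are given as a description and without a test. A further 86 genes in 7 lists of the same pathway and of purine metabolism were tested. Total bone marrow cells of the femur came from 12 male mice of the outbred ICR strain, 3 per group. Mice of the normal group were given saline only. Mice of the model group had oral saline for a week and a daily cyclophosphamide dose of 80 mg/kg on days 5 to 7. QJSB mice had, besides this cyclophosphamide, Qi-Jing-Sheng-Bai granule (a traditional Chinese medicine formula) by mouth for 1 week, at a daily 3 g/kg. Leucogen mice had the cyclophosphamide and, for 1 week, a daily 20 mg/kg of leucogen, which is used against leucopenia. Every treated group therefore carries cyclophosphamide, and no group received a drug alone.

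Extracellular ATP is a danger signal that is cut in steps at the cell surface. CD39, the product of Entpd1, takes ATP and ADP to AMP, and CD73, the ecto-5′-nucleotidase encoded by Nt5e, takes AMP to adenosine. Adenosine acts on G protein-coupled receptors, of which those encoded by Adora2a and Adora2b raise cyclic AMP and dampen many leucocyte responses, while that encoded by Adora3 lowers it. Adenosine deaminase, the product of Ada, turns adenosine into inosine, and its loss causes severe combined immunodeficiency.

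Nt5e lies at 9:88327197-88372092 and Entpd1 at 19:40612366-40741602 of GRCm38. Adora2b lies at 11:62248984-62266453, Adora3 at 3:105870858-105908926 and Ada at 2:163726584-163750239. Adora2a is given at 10:75316943-75334788, and its coordinates alone among the 6 differ from those of GENCODE M21. All are protein-coding genes. Exons of Adora3 overlap those of Tmigd3 on the same strand, so the split of reads between these genes is uncertain. Tmigd3 had 10 to 12 reads in the normal libraries and 1 read in each QJSB library.

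The start regions of Nt5e and Adora2b are shown because these genes had opposite values in the model and leucogen libraries. Each sequence holds 250 bases before and 50 after the RefSeq start on GRCm38.p6, plus strand. Capitals mark GC boxes (GGGCGG or its complement CCGCCC) and the core of the hypoxia response motif (ACGTG or GCGTG, or their complements), matches that overlap being joined.
Nt5e, chr9:88327359-88327658: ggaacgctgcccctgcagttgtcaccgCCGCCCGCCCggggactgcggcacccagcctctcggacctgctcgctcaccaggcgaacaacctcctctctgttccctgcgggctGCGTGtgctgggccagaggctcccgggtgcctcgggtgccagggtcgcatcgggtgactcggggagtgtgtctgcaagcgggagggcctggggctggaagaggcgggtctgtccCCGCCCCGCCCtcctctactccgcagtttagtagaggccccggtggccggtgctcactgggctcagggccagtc
Adora2b, chr11:62248734-62249033: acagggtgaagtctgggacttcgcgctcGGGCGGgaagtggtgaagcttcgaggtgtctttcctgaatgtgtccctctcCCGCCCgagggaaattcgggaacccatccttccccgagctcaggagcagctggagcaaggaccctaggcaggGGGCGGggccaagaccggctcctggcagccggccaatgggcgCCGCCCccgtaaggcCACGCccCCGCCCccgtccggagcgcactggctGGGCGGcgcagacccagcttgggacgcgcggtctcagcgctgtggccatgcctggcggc
Both windows were rich in G and C, with 71% in Nt5e and 70% in Adora2b. Nt5e held 4 GC boxes, counting overlaps, and Adora2b held 6, and each held 1 hypoxia core. Of 32851 RefSeq start regions of this length, 35.7% held a GC box and 43.8% a hypoxia core. Neither window held TGACG, the cyclic AMP response motif found in 20.8% of the start regions. These matches are letters in a window and do not show binding. The Nt5e window lies inside the bounds that the table gives for the gene.

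Library totals ran from 11172547 to 18545198 counts, and the libraries of each group differed by more than counting error. The table heads its columns Blank, Model, Positive and Stilbene, taken here to mean normal, model, leucogen and QJSB, and apart from Model this rests on meaning, elimination and a check of values. Markers of cell types moved strongly with the groups. Summed CPM (read counts scaled to library size) of 8 erythroid markers ran from 11638 to 13051 in the normal libraries and from 76.2 to 737 in the others. Summed CPM of 8 mature B cell markers ran from 913 to 993 in the normal libraries and from 6.12 to 36.1 in the others. The first libraries of the model and QJSB groups stood apart from their groups. Their 10 stromal markers summed to 770 and 924 CPM against at most 267 in the other 4 libraries of these groups, and their 12 late neutrophil markers summed to 2058 and 3353 CPM, the lowest of all 12 libraries. In bulk marrow, fewer cells of a type and less RNA per cell cannot be told apart.

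Nt5e RNA was well detected in normal marrow (330 to 452 reads), nearly lost after cyclophosphamide, and at its normal level in mice that also received leucogen. In CPM scaled by TMM, a normalization for the makeup of the libraries, the normal libraries had 24.9, 31.0 and 22.8. The model libraries had 1.33, 2.84 and 1.21, from 23, 40 and 21 reads. The QJSB libraries had 1.56, 4.98 and 3.84 CPM, and the leucogen libraries 36.6, 22.8 and 29.7 CPM. The normal and leucogen libraries overlapped each other and lay above all model and QJSB libraries. The mean was 26.2 ± 4.29 CPM (SD, n = 3) in normal, 1.79 ± 0.907 in model, 3.46 ± 1.74 in QJSB and 29.7 ± 6.93 in leucogen. The fitted log2 fold change was -3.88 (SE 0.33) in model against normal, 4.07 (SE 0.35) in leucogen against model and 0.20 (SE 0.19) in leucogen against normal. In QJSB against model it was 0.94 (SE 0.52), and in leucogen against QJSB 3.12 (SE 0.40).

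**Figure D1:**
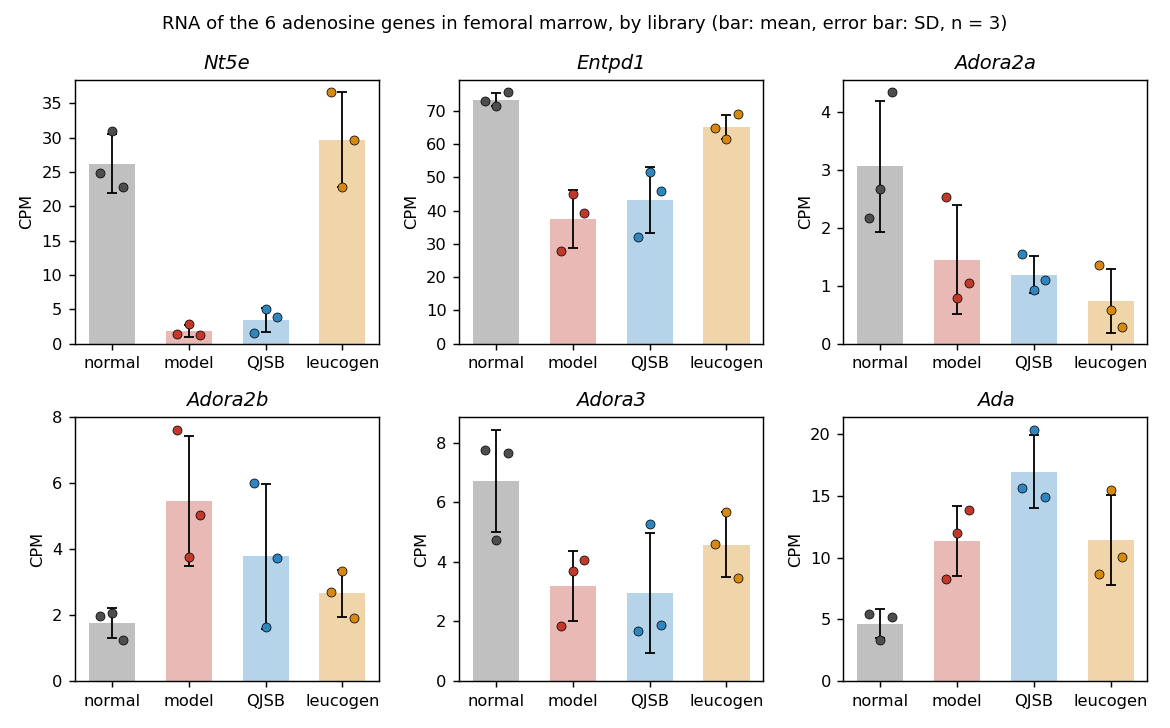
RNA of the 6 genes in CPM (vertical axes, from 0) in each library (points), with the mean (bars) and SD (error bars) of the 3 libraries of each group. The leucogen libraries lay at the level of the normal libraries for Nt5e (22.8 to 36.6 CPM), whereas Adora2a was lowest in the leucogen group and Ada highest in the QJSB group.

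Entpd1, the enzyme upstream of CD73, was also higher in normal and leucogen than in model and QJSB, over a narrower range. The normal libraries had 73.1, 71.5 and 75.6 CPM, the model libraries 27.9, 45.0 and 39.1, the QJSB libraries 32.1, 51.6 and 45.9, and the leucogen libraries 64.8, 61.6 and 68.9. The leucogen libraries lay above every model and QJSB library and just below every normal library. The log2 fold change was -0.97 (SE 0.18) in model against normal, 0.81 (SE 0.19) in leucogen against model and -0.15 (SE 0.09) in leucogen against normal. In QJSB against model it was 0.19 (SE 0.24), with overlapping groups.

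The receptor genes were low, and each had an order of its own. Adora2a had 2.17, 2.68 and 4.35 CPM in normal, 2.54, 0.780 and 1.04 in model, 1.56, 0.926 and 1.10 in QJSB, and 1.35, 0.580 and 0.288 in leucogen. All leucogen libraries were below all normal libraries (log2 fold change -1.99, SE 0.50), and leucogen library 3 had only 3 reads. The model and normal groups overlapped (log2 fold change -1.06, SE 0.48). Without the first model library the value of QJSB against model turned from -0.30 to 0.37.

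Adora2b, the receptor known for its induction by hypoxia and its low affinity, went the other way. It had 1.96, 2.06 and 1.24 CPM in normal, 7.62, 3.76 and 5.02 in model, 6.02, 1.62 and 3.72 in QJSB, and 2.70, 3.34 and 1.92 in leucogen. Every model library was above every normal and every leucogen library, and the QJSB libraries overlapped each other group. The log2 fold change was 1.64 (SE 0.35) in model against normal and -1.03 (SE 0.35) in leucogen against model. In leucogen against QJSB it was -0.49 (SE 0.47), and 0.03 without the first QJSB library, which held the highest QJSB value.

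Adora3 had 7.76, 4.74 and 7.66 CPM in normal, 1.85, 3.69 and 4.04 in model, 1.66, 5.27 and 1.89 in QJSB, and 4.61, 5.66 and 3.46 in leucogen. The model libraries were below the normal libraries (log2 fold change -1.07, SE 0.35), and the leucogen libraries overlapped both. Its value in QJSB against model, -0.13 (SE 0.51), became 0.15 without the first QJSB library, and -0.85 without the second. These values share the uncertainty from Tmigd3. Adora1, the remaining adenosine receptor, had 0 reads in 10 libraries, 1 in a model library and 2 in a QJSB library, and was too low to test.

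Ada was higher in every cyclophosphamide-treated library than in any normal library. It had 5.44, 3.29 and 5.17 CPM in normal, 8.26, 12 and 13.9 in model, 15.6, 20.4 and 14.9 in QJSB, and 8.66, 15.5 and 10.1 in leucogen. Every QJSB library was above every model library, with a log2 fold change of 0.56 (SE 0.25). The value was 1.30 (SE 0.28) in model against normal, 1.32 (SE 0.27) in leucogen against normal and 0.02 (SE 0.28) in leucogen against model. The group with leucogen thus had normal Nt5e values beside Ada values like those of the model.

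**Figure D2:**
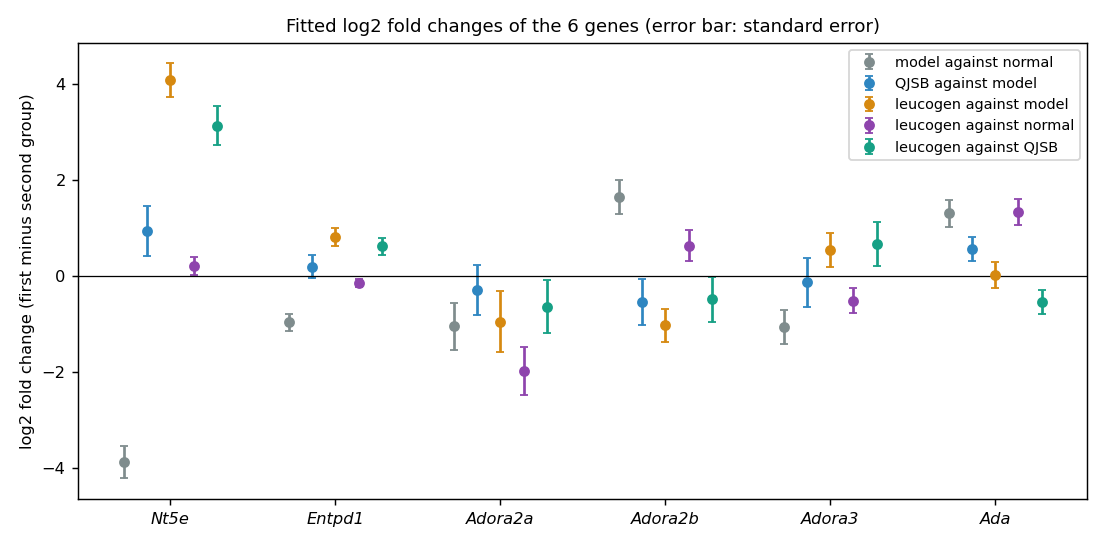
Fitted log2 fold changes of the 6 genes (vertical axis, first minus second group named) in 5 comparisons, with the standard error as bars. Comparisons share groups and are not independent. Nt5e had the widest span, from -3.88 in model against normal to 4.07 in leucogen against model.

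Groups that do not overlap were common among all genes, so the counts over the 6 genes are read beside that share. In model against normal, 5 of the 6 did not overlap, against 55.5% of 14752 genes tested. In QJSB against model 1 of 6 did not overlap, against 9.80%, in leucogen against model 3 of 6 against 46.0%, in leucogen against normal 3 of 6 against 61.8%, and in leucogen against QJSB 2 of 6 against 48.8%. The counts over the 6 genes are small and their choice used these values, so nothing is read from them.

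Levels can be compared between genes only per length, as FPKM (fragments scaled for transcript length and library size). In normal marrow the order of mean FPKM was Entpd1 (8.45 ± 0.289, SD, n = 3), Nt5e (2.71 ± 0.437), Ada (2.13 ± 0.537), Adora3 (1.25 ± 0.322), Adora2a (1.19 ± 0.450) and Adora2b (0.931 ± 0.232). Nt5e and Ada lay within their spread of each other, as did the 3 receptors. In the model group the order began with Ada (5.65 ± 1.18) and Entpd1 (4.67 ± 0.962), which were within their spread, and then Adora2b (3.20 ± 1.29). Adora3 (0.643 ± 0.215), Adora2a (0.625 ± 0.438) and Nt5e (0.202 ± 0.101) followed, so by its mean Nt5e went from the second place to the last. Nt5e and Adora2a lay within their spread of each other here. In QJSB, Ada (7.89 ± 1.02) stood above Entpd1 (5.0 ± 0.812), and Nt5e (0.355 ± 0.160) again had the lowest mean. It lay within the spread of Adora2a (0.477 ± 0.170) and Adora3 (0.544 ± 0.338). In leucogen, Entpd1 (7.29 ± 0.470), Ada (5.07 ± 1.49) and Nt5e (3.00 ± 0.806) led, and Adora2a (0.284 ± 0.221) was last.

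Marker lists of 15 cell types were set beside Nt5e in the same libraries. Summed CPM of the 12 late neutrophil markers, none at 0, ran from 10352 to 10873 in normal, from 2058 to 6446 in model, from 3353 to 18901 in QJSB and from 14713 to 18786 in leucogen. QJSB library 2 had the highest late neutrophil sum of the 12 libraries (18901) with 4.98 CPM of Nt5e, against 22.8 to 36.6 CPM in leucogen. Single markers of this list differed in order. The highest QJSB value was below the lowest leucogen value for Camp (779 against 1178 CPM) and Padi4 (126 against 201). The same held for Mmp8 (985 against 1073 CPM) and Retnlg (739 against 896). The highest QJSB value was above the highest leucogen value for Ngp (5900 against 4627 CPM) and Il1r2 (140 against 41.5). This also held for Lcn2, Cd177, Cxcr2 and Mmp25. For Ltf and Mmp9 the highest QJSB value lay within the leucogen range. The 8 mature B cell markers had 913 to 993 CPM in normal and 6.12 to 7.03 in leucogen, and the 9 T cell markers 34.6 to 52.5 and 15.7 to 19.8. The 10 stromal markers had 345 to 419 CPM in normal and 186 to 218 in leucogen. The T cell sum was 11.3 to 16.4 CPM in model and 12.9 to 18.2 in QJSB. T cell markers differed in order. Cd3d averaged 16.5, 2.14, 5.69 and 10.7 CPM in normal, model, QJSB and leucogen, and Cd3e 3.56, 0.475, 0.645 and 0.208. Nt5e was at its normal level in these leucogen libraries, and whether it followed any of these cell types was not tested. The sum of the 6 NK cell markers differed from these, with 60.8 to 71.5 CPM in normal and 59.0 to 83.0 in leucogen. It was 104 to 126 CPM in model and 103 to 150 in QJSB. Nkg7 made up most of this sum in model, QJSB and leucogen. It averaged 20.1, 103, 118 and 51.0 CPM in normal, model, QJSB and leucogen. Every other NK cell marker of the list had a lower mean in model, QJSB and leucogen than in normal. Ncr1, for example, averaged 11.9, 1.28, 0.663 and 5.03 CPM in the same order. The NK cell sum therefore does not stand for its list. The 6 promyelocyte markers ran from 744 to 956 CPM in normal, 6620 to 9544 in model, 8175 to 9020 in QJSB and 3463 to 4581 in leucogen. The part of changes in cell types in the values of the 6 genes was not tested.

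**Figure D3:**
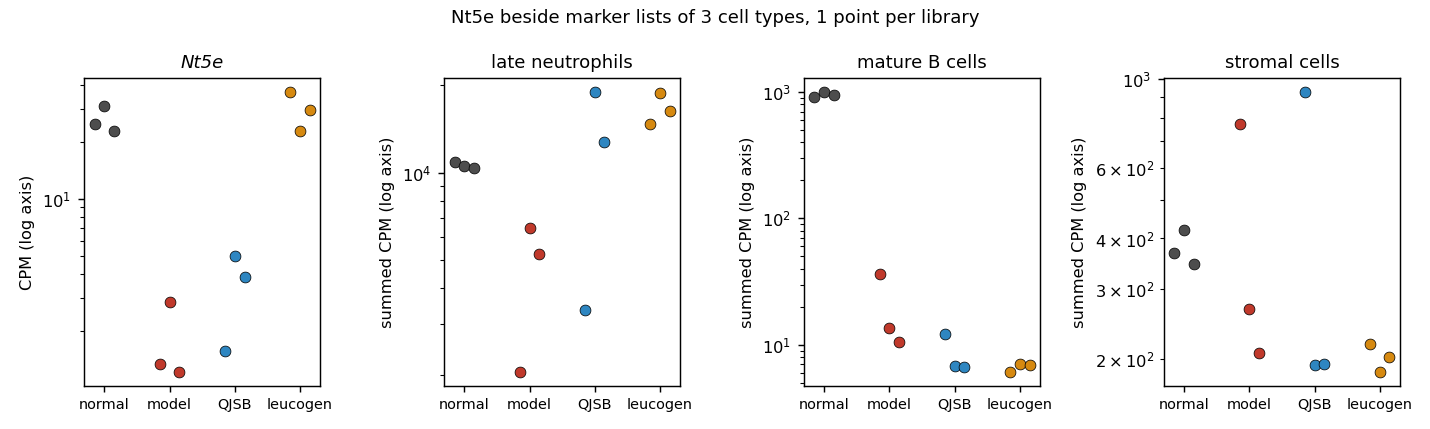
Nt5e in CPM and the summed CPM of markers of late neutrophils, mature B cells and stromal cells (log axes), with 1 point per library. Nt5e in leucogen (22.8 to 36.6 CPM) lay at the normal level. The mature B cell sum was 6.12 to 7.03 CPM in leucogen against 913 to 993 in normal. QJSB library 2 had the highest late neutrophil sum, which not every marker of the list followed.

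The genes nearest to Nt5e were found by the root mean square difference of log2 CPM, centred on each gene's mean, over the 12 libraries and 13077 genes. The nearest was Krt86, a hair keratin, at 0.446, against a median of 1.93 over all genes compared. It was followed by Ighv1-29 (0.549), a heavy chain segment, Sema4f (0.592), a semaphorin, Aldh3b2 (0.608), an aldehyde dehydrogenase, and Ly6g (0.614), the surface marker of mouse neutrophils. Ifit1bl2 (0.615), Tnfsf13b (0.624), which encodes the B cell survival factor BAFF, and the unnamed transcript RP23-82I13.6 (0.635) completed the 8. Several were low: Krt86 had 0 reads in 2 model libraries. Ly6g averaged 155 ± 16.3 CPM in normal, 18.8 ± 18.7 in model, 49.5 ± 41.9 in QJSB and 272 ± 4.44 in leucogen (SD, n = 3). Tnfsf13b averaged 13.9 ± 1.59, 2.06 ± 0.433, 4.41 ± 2.88 and 17.0 ± 0.426 CPM in the same order. The nearest to Entpd1 was Ddx58. For the receptors and Ada the 2 nearest were Fam212a and Kcna3 for Adora2a, and Akap1 and Galnt9 for Adora2b. They were P2ry13 and Ubap1 for Adora3, and Gpi1 and Palm for Ada. Likeness over 12 libraries in 4 groups is a description of these libraries.

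**Figure D4:**
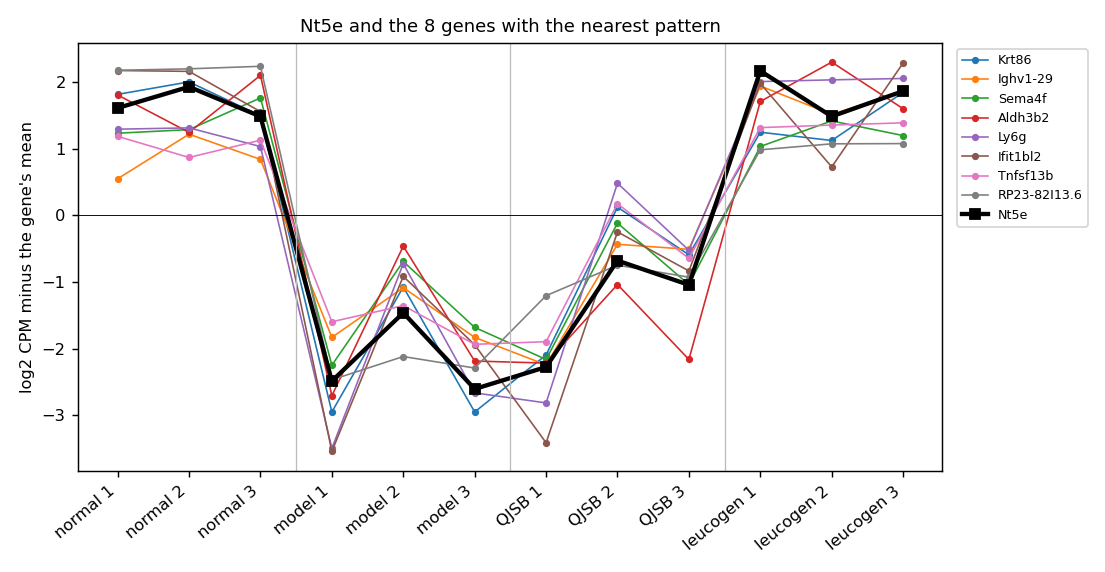
Log2 CPM of Nt5e (black) and its 8 nearest genes in each library (horizontal axis), each minus the gene's own mean, with lines joining the libraries of a gene. All 9 genes were above their mean in the normal and leucogen libraries and below it in the model libraries.

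The rest of the pathway was then compared, model against normal first, to see which steps moved with cyclophosphamide. A gene was called at a Benjamini-Hochberg adjusted p under 0.05 in edgeR's quasi-likelihood test, adjusted over all genes tested, with a change of more than 1.5-fold. Of 86 listed genes 71 were tested, of which 17 (23.9%) rose and 20 (28.2%) fell, against 16.1% and 19.0% of all genes. Their median log2 fold change was 0.08 beside 0.02 for all genes.
At the cell surface, 0 of 10 tested genes for ATP release and ecto-nucleotidases rose and 4 fell. Cd38, which cleaves NAD, fell from 75.1 ± 3.86 to 18.0 ± 8.16 CPM (log2 fold change -2.06, SE 0.32, adjusted p = 0.00188), and Enpp3, a marker of basophils, fell too (-3.79, SE 0.52, adjusted p = 0.00071). Basophil and mast cell markers summed to 125 to 181 CPM in normal and 27.9 to 71.1 in model, and their part was not tested. Panx1, a channel that releases ATP, had 0.25 (SE 0.22, adjusted p = 0.408).
Inside the cell, Entpd5, Entpd6 and Entpd7, nucleotidases of inner membranes, were the 3 tested of their list and all rose, by 0.72 to 0.93. Nt5c3, the pyrimidine nucleotidase of red cells, fell from 362 ± 17.9 to 92.5 ± 22.3 CPM (log2 fold change -1.96, SE 0.18, adjusted p = 9.35e-05), beside the lower erythroid sums given above. Ahcy, which makes adenosine from S-adenosylhomocysteine, rose (0.95, SE 0.18, adjusted p = 0.0039), as did Nt5dc2 (1.06).
All 4 tested nucleoside transporters were called. Slc29a1, the equilibrative transporter ENT1, which is abundant in erythroid cells, fell (-1.98, SE 0.18, adjusted p = 8.31e-05), and the concentrative Slc28a2 rose from 48.4 ± 2.59 to 165 ± 30.9 CPM (1.77, SE 0.16, adjusted p = 9e-05). Slc29a2 and Slc29a3 rose as well.
Of 11 tested genes of adenosine removal and salvage, 3 rose and 2 fell. Dpp4, which encodes the surface partner that binds adenosine deaminase in human cells, fell from 224 ± 6.99 to 49.3 ± 22.9 CPM (-2.18, SE 0.33, adjusted p = 0.00184). Pnp, the phosphorylase that follows Ada, rose from 64.3 ± 9.23 to 124 ± 7.48 CPM (0.95, SE 0.14, adjusted p = 0.00107). Aprt (1.58) and Ampd2 (1.69) rose, and Adk, which phosphorylates adenosine, had -0.40 (SE 0.21, adjusted p = 0.158).
Among 11 tested genes named as P2 receptors, 2 rose and 4 fell, P2ry10 by 3.22 on the log2 scale, P2rx3 by 2.74 and P2ry14 by 1.43. The list was drawn up by gene name, and not every member need sense nucleotides. Of 23 tested genes of cyclic AMP signalling 3 rose and 8 fell, among them Adcy6 (-2.08, SE 0.34, adjusted p = 0.00238), Pde4b (-1.75) and Crem (-1.61). The calls of Alpl, Entpd6, Slc29a2 and Nt5c3b, also in this comparison, did not hold under every left-out library. The adjusted p of Alpl, 0.0408, rose to between 0.0742 and 0.111 without model library 2 or 3 or any normal library. That of Entpd6 was 0.0531 without normal library 1 and 0.0569 without normal library 3. That of Slc29a2 was 0.053 without model library 3 and 0.0633 and 0.0786 without normal libraries 1 and 3. That of Nt5c3b ran from 0.0504 to 0.102 without model library 2 or 3 or any normal library. Ampd3 lost its call without model library 1 through its fold.

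**Figure D5:**
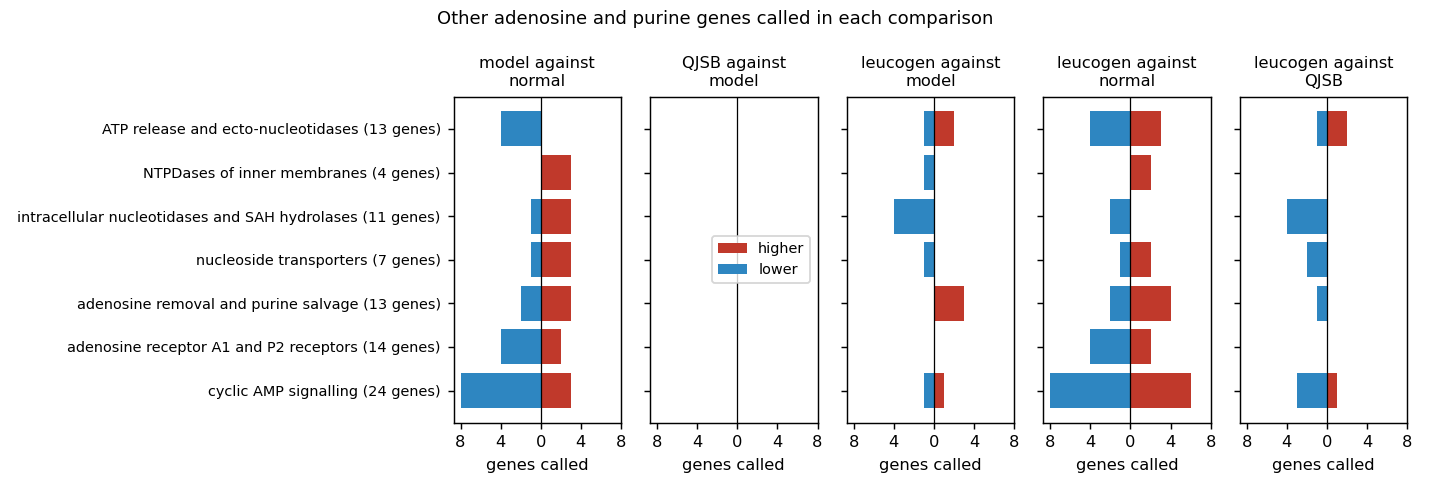
Number of genes called higher (red, right) and lower (blue, left) in each of 7 lists (rows, with the number of genes listed) and 5 comparisons (panels). QJSB against model has 0 called genes, and leucogen against model has 6 higher and 8 lower.

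QJSB against model asked whether the granule moved these genes in treated mice. By the adjusted cutoff 0 of 70 tested list genes were called, against 0% of 14486 genes. By edgeR, 723 genes had an unadjusted p under 0.05 (the smallest adjusted p was 0.767), and DESeq2 called 8 genes. Of the QJSB libraries, only the first varied most with the model library of its own number. A fit with the replicate block called 18 genes and 0 list genes. At the study's cutoff, the same fold with an unadjusted P under 0.05, 1.68% of genes were higher and 1.40% lower. Of the list, Xdh, which makes uric acid, was higher (268 ± 18.2 to 422 ± 148 CPM, log2 fold change 0.64, SE 0.26, adjusted p = 0.767). Dpp4 (-1.0, SE 0.40, adjusted p = 0.767) and P2rx3 (-1.89, SE 0.47, adjusted p = 0.767) were lower, and none of the 3 passed the adjusted test. P2rx3 was low, with 16 to 28 reads in the model libraries and 4 to 9 in the QJSB libraries. Without the first QJSB library 12 list genes passed this cutoff, without the third model library 6, and without QJSB library 2 or 3 or model library 2 only 1. These counts moved with those over all genes. An unadjusted p under 0.05 in edgeR was found for 2291 of 14755 genes without the first QJSB library. It was found for 1561 of 14888 without the third model library. Without QJSB library 2, QJSB library 3 and model library 2 it was found for 183, 355 and 309 genes.

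Leucogen against model asked which of these genes differed under the reference drug. Of 69 list genes tested 6 (8.70%) rose and 8 (11.6%) fell, against 11.6% and 11.5% of all genes, and their median was -0.16 beside -0.05 for all genes. With total counts in place of TMM the share of calls that were higher, over all genes, went from 50.1% to 30.2%, with a median of -0.22.
Of 8 tested genes for ATP release and ecto-nucleotidases 2 rose and 1, Cd38, fell (-1.34, SE 0.38, adjusted p = 0.0322). Slc17a9, the vesicular nucleotide transporter, rose from 35.8 ± 9.23 to 89.4 ± 1.94 CPM (log2 fold change 1.33, SE 0.20, adjusted p = 0.00346). Acpp, an acid phosphatase that can also cut AMP to adenosine, rose from 44.9 ± 13.4 to 100.4 ± 7.39 CPM (1.17, SE 0.21, adjusted p = 0.00674).
Among intracellular nucleotidases and SAH hydrolases 0 of 9 tested rose and 4 fell. Ahcy fell from 42.7 ± 6.78 to 12.2 ± 1.51 CPM (-1.79, SE 0.18, adjusted p = 0.00158), and Nt5dc2 (-1.31) and Nt5c3b (-1.02) fell too. Of the nucleoside transporters, Slc29a3 (-0.87), a transporter of lysosomes, fell. Ampd3, which deaminates AMP, rose (0.92, SE 0.16, adjusted p = 0.00616), and so did Pde4d (0.83, SE 0.18, adjusted p = 0.0127), which breaks down cyclic AMP. Adk, which phosphorylates adenosine, had -0.46 (adjusted p = 0.12), and the transporter gene Slc29a1 had -0.20 (adjusted p = 0.496). Panx1 had -0.63 (adjusted p = 0.0697). Pnp had -0.49 (adjusted p = 0.0275), below the fold cutoff, and Dpp4 -0.70 (adjusted p = 0.149).
Many calls were lost when the third or the first leucogen library was left out, which also leaves fewer mice to test. Without the third 5 list genes were called and without the first 8, against 14. Without the third, the adjusted p of Nt5c3b became 0.0551, of Slc29a3 0.0568, of Pde4d 0.0538 and of Nt5dc2 0.0668 (0.0631 without the first). Calls of Cd38, Entpd6, Gda, Gnas and Xdh were likewise lost without the third, with adjusted p from 0.0676 to 0.123. Those of Gda and Xdh were also lost under total counts. They were also lost without leucogen library 1 (Cd38, Entpd6, Gda and Gnas), leucogen library 2 (Entpd6, Gda and Xdh), model library 1 (Entpd6 and Gda), model library 2 (Cd38) or model library 3 (Cd38, Entpd6, Gda and Gnas), with adjusted p from 0.0528 to 0.108.

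Leucogen against normal showed which differences from normal marrow stood beside the normal Nt5e level. Of 70 list genes tested 19 (27.1%) rose and 21 (30%) fell, against 17.8% and 19.8% of all genes, with a median of 0.04 beside -0.01. Dpp4 (-2.87, SE 0.10, adjusted p = 2.7e-08), Slc29a1 (-2.17, SE 0.11, adjusted p = 2.87e-07), Nt5c3 (-1.58) and Cd38 (-3.37) fell, with leucogen levels of 30.3 ± 2.33, 11.5 ± 0.583, 120 ± 12.1 and 7.05 ± 2.24 CPM. Adk fell (-0.85, SE 0.12, adjusted p = 0.000213), from 43.8 ± 5.53 to 23.9 ± 1.17 CPM, and Pnp had 0.47 (adjusted p = 0.00916), below the fold cutoff. Slc28a2 (1.21), Aprt (1.06), Ampd2 (1.34) and Xdh (0.73) rose. Of genes named as P2 receptors, P2ry10 (-3.84) and P2rx3 (-3.75) fell. Of cyclic AMP genes, Adcy6 (-2.68) and Pde4b (-2.27) fell, and Pde4d rose from 45.0 ± 1.64 to 172 ± 3.39 CPM (1.96, SE 0.08, adjusted p = 8.9e-08). Calls of Enpp3 and Slc29a2 were lost without single libraries, with adjusted p from 0.0828 to 0.137 for Enpp3 without leucogen library 3 or any normal library. For Slc29a2 it ran from 0.0541 to 0.0803 without leucogen library 1 or normal library 1 or 3.

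Leucogen against QJSB compared the drugs directly in mice given the same cyclophosphamide. Of 69 list genes tested 3 (4.35%) rose and 11 (15.9%) fell, against 11.7% and 12.9% of all genes, with a median of -0.16 beside -0.03. Over all genes the share of calls that were higher was 47.7%, and 39.4% with total counts. Ahcy fell from 36.6 ± 10.9 to 12.2 ± 1.51 CPM (-1.56, SE 0.23, adjusted p = 0.00343), and Slc29a3 (-0.88) and Cd38 (-1.33) fell. Gnas, which encodes the stimulatory G protein of Adora2a and Adora2b receptors, fell from 168 ± 27.0 to 82.9 ± 13.2 CPM (-1.0, SE 0.17, adjusted p = 0.00497), and Prkaca, a catalytic subunit of protein kinase A, fell too (-0.93, SE 0.18, adjusted p = 0.00822). Pde4d rose (0.80, SE 0.15, adjusted p = 0.00788). Bst1 rose (0.95, adjusted p = 0.00813).
Each leucogen library varied most with the QJSB library of its own number. With the replicate block the call of Nt5c3b was lost (adjusted p = 0.0503), and Adcy6 (-0.76, adjusted p = 0.0315) and Crem (0.75, adjusted p = 0.0438) were called. Without the third leucogen library 6 list genes were called and without the first 7, against 14. The adjusted p was then 0.0503 for Bst1, 0.0512 for Prkaca, 0.0711 for Aprt and 0.087 for Nt5dc2. Calls of Slc17a9, Slc28a2 and Nt5c3b were also lost without it, with 0.0864, 0.11 and 0.154. Those 3 were lost as well without leucogen library 1, leucogen library 2 or QJSB library 3, and Slc28a2 without QJSB library 2 and Nt5c3b without QJSB library 1, with adjusted p from 0.0621 to 0.134. Aprt and Nt5dc2 were lost without leucogen library 1 (0.0665 and 0.0824).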

How the data were processed

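RNA of total femoral marrow from 12 mice was sequenced as strand-specific libraries depleted of ribosomal RNA. Reads cleaned with Seqtk were mapped by the authors to GRCm38.p4 using HISAT2 2.0.4. The program that counted reads is not given in the sources used here. The deposited table gives raw counts, which were tested, and FPKM computed by the authors, used for levels between genes. Columns headed Blank, Positive and Stilbene were taken as the normal, leucogen and QJSB groups by meaning and elimination. As a check, mean normalized counts of 300 genes per study comparison matched these columns within 1% for 300 of 300 genes in each, so the assignment rests in part on values.

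The 6 genes and all lists were chosen with earlier results of these data known. Counts were tested with edgeR 4.0.16 (TMM, filterByExpr, robust glmQLFit, glmQLFTest; R 4.3.3) in the 6 libraries of each comparison, with Benjamini-Hochberg adjustment over all genes tested. All 6 genes passed the filter. p-values measure the spread between mice within these groups. Comparisons share groups. Named list genes were Adk, Pnp, Slc29a1, Adora1, Dpp4 and Panx1, and per list and comparison at most the 3 largest called changes without overlap and with at least 1 CPM. Other genes named were chosen after their values were seen. A gene near Entpd1 in pattern is not reported here. Of the list genes, 15 were too low to test anywhere. The tests were tested on simulated data. Same-numbered libraries pair where all 3 correlations of their deviations exceed 0.1, which held for QJSB and model (0.453, 0.136 and 0.103) and for leucogen and QJSB (0.174, 0.157 and 0.110), from the data alone. Alternatives were DESeq2 1.42.0, DESeq2 size factors, total counts, no filter, a filter of at least 10 counts per library, a joint fit of all 12 libraries, the replicate block, limma-trend (limma 3.58.1) on log2(FPKM + 0.1), and each library left out.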

Additional observations from a re-analysis of the deposited data

How the results depend on the processing

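Fold changes of the 6 genes kept their direction under the alternatives, except for Ada in leucogen against model, Adora3 and Adora2a in QJSB against model and Adora2b in leucogen against QJSB. In leucogen against model Nt5e ran from 3.38 (limma-trend on FPKM) to 4.58. In QJSB against model the 0 genes called became 8 with DESeq2, 18 with the replicate block, and 0 to 3 when 1 library was left out, the 3 without the first QJSB library. With 1 library left out, genes called in leucogen against model ran from 1239 (without leucogen library 3) to 3953 (without model library 2) against 3275, with 1724 without leucogen library 1, and list genes from 5 to 18. In leucogen against QJSB, again with 1 library left out, genes called ran from 1544 to 3585 against 3511, with 1544 and 2157 without leucogen libraries 3 and 1, and list genes from 6 to 14. The replicate block changed no call of the 86 list genes in QJSB against model, and in leucogen against QJSB it changed those of Nt5c3b, Adcy6 and Crem among the named genes. Of 2371 alternative values of named list genes, 2235 kept their status as called or not called and 136 changed it. A change of direction with a call in either fit was found in 0. Direction was not checked for genes called in neither fit. With total counts the share of calls that were higher in model against normal went from 45.8% to 56.3%, with the median of all genes at 0.14. Genes with few reads, such as Adora2a, are limited by depth.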
